A study of Mus musculus with 16 samples.

Results

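The genes described here are the odorant receptor genes with symbols Olfr1210 to Olfr1317, which lie on mouse chromosome 2. The rule of choice uses the number in the symbol and no measured value, but it was set with earlier results of these data known. Of the 108 numbers in this range, 88 genes were measured by a probe set that carries exactly 1 gene symbol, and each of the 88 had 1 such probe set. They are 88 of 1091 odorant receptor genes and of 19505 genes measured. The RefSeq gene table of assembly GRCm38.p6 lists 107 symbols in the range. Of these, 17 are pseudogenes, and Olfr1285 and Olfr1299 were not analysed here.

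Odorant receptors are G protein-coupled receptors of olfactory sensory neurons, and a mature neuron is known to express a single receptor gene from a single allele. Binding of an odorant activates a G protein, adenylyl cyclase and a cyclic nucleotide-gated channel, and the activity this produces changes the transcription of other genes, among them S100a5, a calcium-binding protein gene. Receptor genes lie in large genomic clusters in which genes of similar sequence are often neighbours, and the long clusters of mouse chromosome 2 hold class II receptors, the class found in land vertebrates.

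Cells were sorted from dissociated olfactory mucosa of mice with the S100a5-tauGFP allele, in which the S100a5 gene drives a green fluorescent protein, so a GFP+ cell is one with enough reporter to pass the gate. Mice of both sexes aged 7 to 12 weeks (24 in all) spent 40 h alone in a chamber supplied with clean air at 3.1 L/min, and from 26 h received octanol, an 8-carbon alcohol, or filtered air as vehicle for 10 s every 20 min. Groups of 3 mice were pooled and sorted, and 50 to 100 ng of RNA of each fraction was measured on a Clariom S array. Each exposure had 4 pools, and both fractions of every pool were measured, which gives 4 groups of 4 arrays. All mice carry the reporter, and that the fractions of 1 number come from 1 pool is inferred from the number of mice.

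Values are log2 signals as deposited. A level is given as log2 signal and a difference as log2 of the ratio of signals, and 1 log2 unit is a doubling. A signal depends on its probes, so levels of different genes are not compared. Background was taken as 6.32 log2, below which lie 95% of 321 vomeronasal receptor genes, whose known site of expression is the vomeronasal organ. The mature neuron marker Omp was at 18.0 to 18.2 on all 16 arrays, so both fractions held mature olfactory sensory neurons. In GFP+ cells all 4 neutrophil, all 4 measured myeloid, all 4 measured lymphoid, all 5 microvillar, all 4 measured progenitor, 5 of 6 immature neuron and 3 of 5 sustentacular marker genes were lower than in GFP- cells after both exposures (limma, adjusted p under 0.05). Of all genes 11.8% were lower after both. The log2 of the summed neutrophil marker signal was 11.09 to 14.12 in octanol GFP+ cells, against 18.74 to 19.38 in octanol GFP- cells. After vehicle it was 9.74 to 11.34 in GFP+ cells, against 18.43 to 19.07 in GFP- cells, and the octanol GFP+ arrays of replicates 3 and 4 were the highest of the GFP+ arrays at 12.93 and 14.12. The part of this difference in cell content in the receptor differences below was not tested. These are bulk samples, so fewer cells that express a receptor and less of its RNA per cell cannot be told apart.

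In gene order the 88 genes form 2 blocks. The first runs from Olfr1211 to Olfr1274 and holds 54 measured genes, the second from Olfr1275 to Olfr1317 and holds 34, and 119 other coding genes of the RefSeq table lie between them. MOR numbers are an older nomenclature that groups mouse receptors into families by sequence. A family was read from a hyphenated MOR number among the RefSeq synonyms of 83 of the genes. The first block holds the families MOR233 (17 genes), MOR231 (14), MOR232 (5), MOR234 (3), MOR228 (3) and MOR227 (3), and MOR235, MOR236, MOR237 and MOR238 with 1 gene each. The second block holds MOR245 (20) and MOR248 (14). Olfr1252 has no MOR number in the table. The synonyms of Olfr1220 (MOR2335), Olfr1245 (MOR23112), Olfr1246 (MOR2319) and Olfr1248 (MOR23110) are written without a hyphen. No family was read from them, and these genes, like Olfr1252, are missing from the family counts and medians below.

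Family members can be nearly alike in sequence and yet differ in the fraction in which they are found, and the coding starts of such relatives are shown for that reason. Each is the first 50 bases of the coding sequence, from ATG, as RefSeq gives them for GRCm38.p6. Lower case marks bases shared with the first sequence of its family and capitals mark bases that differ from it. The first set is from MOR248, where Olfr1297 was found mainly in GFP- cells and the others shown were higher in GFP+ cells or, for Olfr1295, in neither.

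Olfr1297: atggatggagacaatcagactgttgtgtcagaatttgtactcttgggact
Olfr1298: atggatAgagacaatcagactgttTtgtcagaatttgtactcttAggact
Olfr1294: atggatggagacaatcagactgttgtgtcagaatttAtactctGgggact
Olfr1295: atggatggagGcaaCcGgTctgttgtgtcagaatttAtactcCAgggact
Olfr1301: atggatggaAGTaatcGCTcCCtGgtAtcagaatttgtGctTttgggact

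These lie at chr2:111622023-111622072 (minus strand), chr2:111645946-111645995 (minus), chr2:111538238-111538287 (minus), chr2:111565393-111565442 (minus) and chr2:111754251-111754300 (plus), in the order printed. Olfr1298 shares 47 of 50 bases with Olfr1297, Olfr1294 shares 48, Olfr1295 shares 43 and Olfr1301 shares 38. The next set is from MOR231, where Olfr1243, Olfr1241 and Olfr1251 were lower in GFP+ cells and Olfr1238 was higher.

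Olfr1243: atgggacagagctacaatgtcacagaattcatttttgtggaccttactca
Olfr1241: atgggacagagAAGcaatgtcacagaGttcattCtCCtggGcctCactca
Olfr1238: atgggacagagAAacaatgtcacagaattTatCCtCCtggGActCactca
Olfr1251: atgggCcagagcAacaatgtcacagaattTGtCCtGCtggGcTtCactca

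They lie at chr2:89528359-89528408, chr2:89483084-89483133, chr2:89407028-89407077 and chr2:89667835-89667884, all on the minus strand, and share 41, 40 and 39 of 50 bases with Olfr1243 in the order printed. Olfr1249 and Olfr1253 have the same 50 bases as Olfr1251. The last set is from MOR233, where Olfr1219 and Olfr1216 were lower in GFP+ cells, Olfr1218 was higher and Olfr1214 did not pass the test.

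Olfr1219: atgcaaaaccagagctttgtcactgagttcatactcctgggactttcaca
Olfr1218: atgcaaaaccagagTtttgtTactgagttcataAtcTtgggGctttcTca
Olfr1216: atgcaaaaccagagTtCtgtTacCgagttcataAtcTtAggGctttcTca
Olfr1214: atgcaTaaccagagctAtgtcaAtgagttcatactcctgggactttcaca

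They lie at chr2:89075040-89075089, chr2:89055375-89055424, chr2:89014013-89014062 and chr2:88988151-88988200, all on the minus strand, and Olfr1218, Olfr1216 and Olfr1214 share 44, 41 and 47 of 50 bases with Olfr1219. Whether probes of close relatives also take up each other's RNA was not tested, and values of genes with identical stretches are uncertain to that extent.

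The first comparison shows in which fraction each receptor's RNA was found. After octanol, the signal of 35 of the 88 receptors was higher and that of 27 lower in the GFP+ fraction (limma, Benjamini-Hochberg adjusted p under 0.05 over all genes), where 16.7% of all genes were higher and 13.2% lower. After vehicle, 31 were higher and 31 lower, against 14.7% and 13.5% of all genes. In either direction 62 of the 88 passed after each exposure, where 29.9% of all genes did after octanol and 28.2% after vehicle. Unadjusted p was under 0.05 for 71 of the 88 after octanol and 65 after vehicle, and for 41.6% and 40.6% of all genes. The median difference of the 88 was -0.01 log2 after octanol and 0.13 after vehicle, beside 0.63 and 0.44 for the 1003 other odorant receptors and 0.14 and 0.13 for all genes. Of the other receptors 479 were higher and 209 lower after octanol, and 439 and 223 after vehicle. Calls were made with the pool as a block. With the octanol pools 3 and 4 left out (an alternative chosen after the data were seen) 23 of the 88 were higher and 20 lower after octanol. The shares of all genes fell as well, to 8.13% higher and 10.1% lower.

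The split of higher and lower calls depends on how the arrays are scaled. With arrays as deposited 56.5% of the called receptors were higher after octanol and 50.0% after vehicle. Quantile normalization gave 57.1% and 54.8%, centring each array on its median over all genes gave 62.9% and 64.2%, and centring on the other odorant receptors gave 34.4% and 41.4%. Over all genes the share of higher calls moved further, at 55.9% after octanol and 52.2% after vehicle as deposited, 84.9% and 86.5% with arrays centred on their median, and 4.51% and 11.2% with arrays centred on the other receptors. The last moved the median difference of all genes to -0.41 after octanol and -0.20 after vehicle, and centring on the median of all genes moved it to 0.41 and 0.46. No receptor of the 88 was called in opposite directions under any scaling tried.

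The order of the receptors was nearly the same after both exposures, which used different mice: the correlation of the octanol and vehicle differences over the 88 receptors was 0.987, as a description of genes measured on arrays of 1 type and scaled together. Higher after both exposures were 30 receptors, where 9.1% of all genes were, and lower after both were 27, where 11.8% were. In neither exposure did 21 pass the test (62.8% of all genes), and 0 were called in opposite directions. The remaining 10 passed in 1 exposure, 5 as higher after octanol, 1 as higher after vehicle (Olfr1276) and 4 as lower after vehicle. The 4 GFP+ arrays did not overlap the 4 GFP- arrays for 32 receptors that were higher and 24 that were lower after octanol (15.7% and 12.4% of all genes), and for 26 and 25 after vehicle (14.6% and 13.2%).

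**Figure D1:**
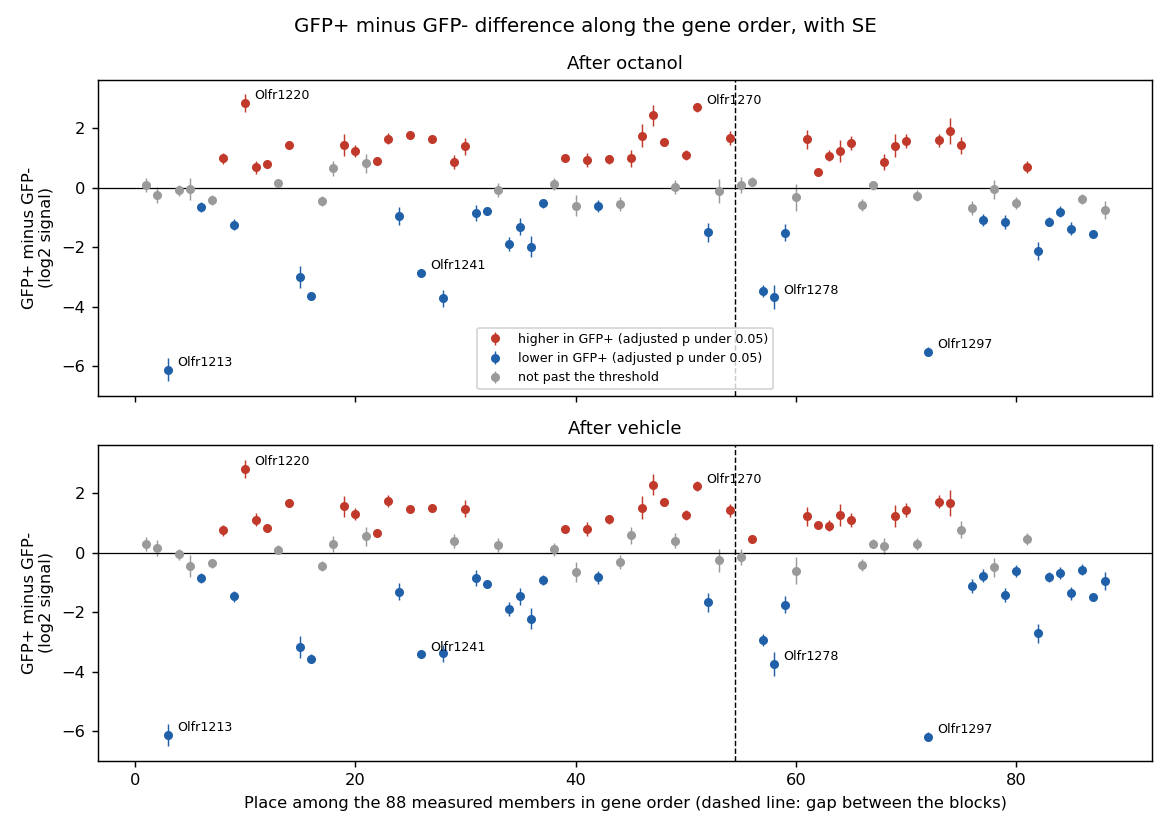
GFP+ minus GFP- difference in log2 signal (points, with SE) for each of the 88 receptors in gene order, after octanol (upper panel) and after vehicle (lower panel). Red points are higher and blue points lower in GFP+ cells at adjusted p under 0.05, grey points did not pass, and the same receptors stand out in both panels, with Olfr1213 and Olfr1297 about 6 log2 below 0.

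Of the largest differences most were falls. Over 2 log2 in size were 12 of the 88 differences after octanol (13.6%), against 31.0% of the other receptors, and 13 after vehicle (14.8%), against 27.8%. The rises among them were Olfr1220, Olfr1270 and Olfr1263 in both exposures.

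Olfr1213, a MOR233 receptor, had 7.93, 7.33, 7.40 and 7.96 log2 signal in octanol GFP+ cells, against 13.27, 13.84, 14.07 and 13.88 in octanol GFP- cells. After vehicle it had 8.14, 7.54, 6.21 and 7.50 in GFP+ cells, against 13.19, 12.76, 13.79 and 14.14 in GFP- cells. Every GFP+ array was more than 4 log2 below every GFP- array, and 1 vehicle GFP+ array was under background. The difference was -6.11 ± 0.38 log2 after octanol (SE, 69.3-fold lower, limma adjusted p = 1.66e-06) and -6.12 ± 0.38 after vehicle (at least 68.4-fold lower with that array raised to background, adjusted p = 1.70e-06).

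Olfr1297, of MOR248, had 8.95, 8.79, 9.87 and 9.65 in octanol GFP+ cells, against 14.75, 14.44, 15.08 and 15.02 in octanol GFP- cells. After vehicle it had 9.61, 8.09, 8.81 and 8.80 in GFP+ cells, against 15.19, 14.66, 15.09 and 15.07 in GFP- cells. The fractions again did not overlap, and all GFP+ arrays were above background. Its difference was -5.51 ± 0.16 after octanol (45.4-fold lower, adjusted p = 3.88e-08) and -6.17 ± 0.16 after vehicle (72.2-fold lower, adjusted p = 2.81e-08).

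Its neighbour Olfr1298, the next measured gene in order, went the other way. It had 11.35, 11.58, 11.47 and 11.27 in octanol GFP+ cells, against 9.42, 9.41, 10.28 and 10.19 in octanol GFP- cells, and 11.54, 11.95, 11.44 and 11.71 in vehicle GFP+ cells, against 9.28, 10.02, 10.31 and 10.17 in vehicle GFP- cells. Every GFP+ array was above every GFP- array of its exposure. The difference was 1.59 ± 0.22 after octanol (3.02-fold, adjusted p = 3.87e-04) and 1.72 ± 0.22 after vehicle (3.29-fold, adjusted p = 2.32e-04).

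Olfr1220 had the highest of the differences in both exposures. It had 15.48, 15.19, 15.04 and 15.09 in octanol GFP+ cells, against 12.44, 13.06, 11.85 and 12.05 in octanol GFP- cells, and 15.23, 14.57, 15.27 and 14.87 in vehicle GFP+ cells, against 12.39, 12.91, 11.41 and 11.94 in vehicle GFP- cells. No GFP+ array overlapped a GFP- array, with differences of 2.85 ± 0.30 after octanol (7.21-fold, adjusted p = 5.72e-05) and 2.83 ± 0.30 after vehicle (7.09-fold, adjusted p = 6.12e-05). Next came Olfr1270 (MOR227), at 2.70 ± 0.16 and 2.24 ± 0.16, and Olfr1263 (MOR234), at 2.43 ± 0.36 and 2.29 ± 0.36, after octanol and vehicle in that order. Also among the 10 highest after octanol, with the same sign in all 4 pools, were Olfr1301 (1.91), Olfr1240 (1.76), Olfr1262 (1.74), Olfr1274 (1.68), Olfr1238 (1.65), Olfr1242 (1.64) and Olfr1281 (1.62). After vehicle, among receptors with the same sign in all 4 pools, the 10 highest held Olfr1298 (1.72), Olfr1264 (1.70), Olfr1225 (1.67), Olfr1231 (1.56) and Olfr1246 (1.49) beside Olfr1220, Olfr1263, Olfr1270, Olfr1238 and Olfr1242. Without vehicle replicate 3 or 4 Olfr1231 had an adjusted p of 0.0563 or 0.0520, and with the octanol pools 3 and 4 left out Olfr1262, Olfr1281 and Olfr1301 had adjusted p of 0.176, 0.123 and 0.167 after octanol.

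**Figure D2:**
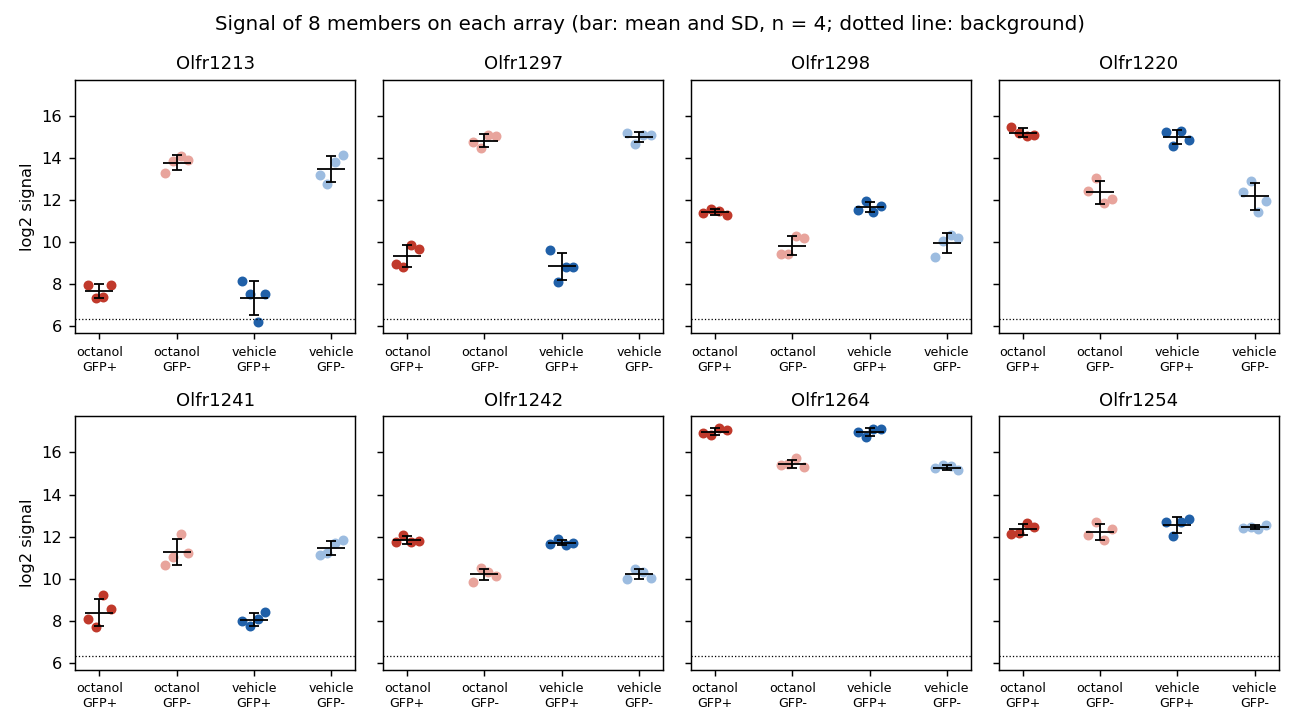
Log2 signal on each array (points) with the mean and SD (bars, n = 4) for 8 receptors, with the GFP+ group left of the GFP- group and octanol left of vehicle, and background as a dotted line. Olfr1213, Olfr1297 and Olfr1241 lie low in GFP+ cells, Olfr1298, Olfr1220, Olfr1242 and Olfr1264 lie high there, and Olfr1254 overlaps in all groups.

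The same 10 receptors had the largest falls after both exposures, apart from their order. Beside Olfr1213 and Olfr1297 these were Olfr1243 (-3.72 ± 0.28 after octanol and -3.37 ± 0.28 after vehicle), Olfr1241 (-2.86 ± 0.14 and -3.41 ± 0.14), Olfr1228 (-3.63 ± 0.14 and -3.55 ± 0.14) and Olfr1226 (-3.00 ± 0.37 and -3.15 ± 0.37). Olfr1310 fell by 2.13 and 2.71 log2, and Olfr1252 fell by 1.99 and 2.22 log2. For Olfr1278 and Olfr1277 some GFP+ arrays lay under background, so the folds are bounds. Olfr1278 was at least 11.2-fold lower after octanol and at least 12.4-fold lower after vehicle, and Olfr1277 was at least 10.7-fold lower after octanol and 7.63-fold lower after vehicle.

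At the level of single genes, 85 of the 88 had a mean above background over the 16 arrays, beside 90.5% of the other receptors and 66.1% of all genes, and 79 were above it on all 16 arrays. Means under background were found for Olfr1230, Olfr1279 and Olfr1314. Olfr1279 had no GFP+ array above background, and its GFP+ signal was lower by at least 1.49-fold after octanol and at least 1.43-fold after vehicle. Olfr1264, the 1 gene of MOR236 here, had 16.92, 16.82, 17.15 and 17.09 in octanol GFP+ cells, against 15.42, 15.44, 15.72 and 15.29 in octanol GFP- cells, a difference of 1.53 ± 0.12 (adjusted p = 8.69e-06). Olfr1254, Olfr1215 and Olfr1229 passed the test in no comparison. Olfr1254 averaged 12.34 ± 0.26 in GFP+ cells after octanol, against 12.23 ± 0.37 in GFP- cells, and 12.56 ± 0.38 in GFP+ cells after vehicle, against 12.45 ± 0.09 in GFP- cells (SD, n = 4 each), and the fractions overlap.

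Where both were called, neighbours in the gene order agreed in direction more often than not, but some lay far apart. Over the 86 pairs of neighbouring measured receptors within a block, the correlation of the difference of a gene with that of its neighbour was 0.124 after octanol and 0.0846 after vehicle, as a description. Both genes of a pair were called in the same direction for 27 pairs after octanol and 28 after vehicle, and in opposite directions for 15 and 14. Besides Olfr1297 and Olfr1298, the pairs furthest apart lay next to each other in the first block. Olfr1240 (1.76 after octanol, 1.48 after vehicle), Olfr1241 (-2.86 and -3.41), Olfr1242 (1.64 and 1.49) and Olfr1243 (-3.72 and -3.37) follow each other and alternate in direction. Olfr1225 (1.42 and 1.67) precedes Olfr1226 (-3.00 and -3.15) in the same way.

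Olfr1241 had 8.09, 7.68, 9.23 and 8.54 in octanol GFP+ cells, against 10.62, 11.03, 12.10 and 11.24 in octanol GFP- cells. Olfr1242 had 11.74, 12.09, 11.73 and 11.78 in octanol GFP+ cells, against 9.86, 10.48, 10.32 and 10.14 in octanol GFP- cells. The fractions do not overlap for either gene, and the vehicle arrays gave the same order.

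Neighbours called in 1 direction also formed runs. The longest run with 1 direction in both exposures was 5 receptors higher in GFP+ cells, Olfr1281, Olfr1282, Olfr1283, Olfr1284 and Olfr1286, all in the second block, with differences of 0.52 to 1.62 after octanol. Runs of 4 lower receptors were Olfr1250 to Olfr1253 and Olfr1310 to Olfr1313, and runs of 3 were Olfr1220 to Olfr1222 and Olfr1262 to Olfr1264 (higher) and Olfr1277 to Olfr1279 (lower). By block, 23 receptors of the first were higher and 16 lower after octanol, and 21 and 16 after vehicle. In the second, 12 were higher and 11 lower after octanol, and 10 and 15 after vehicle. The receptors numbered just before these on chromosome 2 had other counts: of the 80 measured from Olfr1100 to Olfr1209, 41 were higher and 18 lower after octanol and 37 and 21 after vehicle, and of the 71 from Olfr987 to Olfr1099, 47 and 10 after octanol and 40 and 11 after vehicle.

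By family, the 2 large families of the second block had medians of opposite sign, and the sign was the same under all 3 other scalings. Of the 14 MOR248 receptors 9 were higher and 2 lower after octanol, and 8 and 2 after vehicle, with medians of 1.25 and 0.93. The 2 lower ones were Olfr1297 and Olfr1277, and the highest was Olfr1301 after octanol and Olfr1298 after vehicle. The count of higher MOR248 receptors was 4 after octanol with the octanol pools 3 and 4 left out, and 5 after vehicle without vehicle replicate 3 or without replicate 4. The share of all genes called higher fell too, to 8.13%, 10.1% and 8.84% in that order. Calls over all genes were likewise fewer whenever replicates of the exposure compared were left out. Of the 20 MOR245 receptors 3 were higher and 9 lower after octanol, and 2 and 13 after vehicle, with medians of -0.71 and -0.73. Olfr1284 was the highest of them (1.24 ± 0.36 and 1.27 ± 0.36) and Olfr1278 the lowest. Higher MOR245 receptors after octanol were 0 or 1 without any 1 octanol replicate, and lower ones after vehicle were 8 without vehicle replicate 2. With arrays centred on the other receptors 0 MOR245 receptors were higher in either exposure and 14 were lower after octanol. Under that scaling 2.52% of all genes were higher and 53.3% lower after octanol, and 3.01% were higher after vehicle.

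Within the first block, MOR231 had 4 higher and 7 lower receptors of 14 after each exposure, with medians of -0.56 and -0.75, negative under all scalings, and 4 lower ones after octanol without any 1 octanol replicate or with arrays centred on their median. Its highest were Olfr1240 after octanol and Olfr1238 after vehicle, and its lowest Olfr1243 and Olfr1241. MOR233 had 5 higher and 5 lower of 17 after each exposure. With arrays centred on the other receptors it had 2 higher and 10 lower after octanol, where 2.52% and 53.3% of all genes were. The sign of its median changed with the scaling. Of these 17 the highest was Olfr1225 and the lowest Olfr1213. Olfr1220, whose synonym MOR2335 has no hyphen, was not counted among them and was higher, at 2.85 after octanol and 2.83 after vehicle. Among the small families MOR234 had 3 of 3 higher after octanol (1 with the octanol pools 3 and 4 left out) and 2 after vehicle (1 without vehicle replicate 3 or 4), MOR228 had 2 of 3 higher, and MOR227 had 1 of each in 3, Olfr1270 higher and Olfr1271 lower. MOR232 had 3 higher and 1 lower of 5 after each exposure. After octanol its counts were 1 higher and 2 lower with arrays centred on the other receptors, beside the shares of all genes given for MOR233. It had 0 lower without any 1 octanol replicate, without vehicle replicate 1 or 3, or with arrays centred on their median (10.4% of all genes lower).

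**Figure D3:**
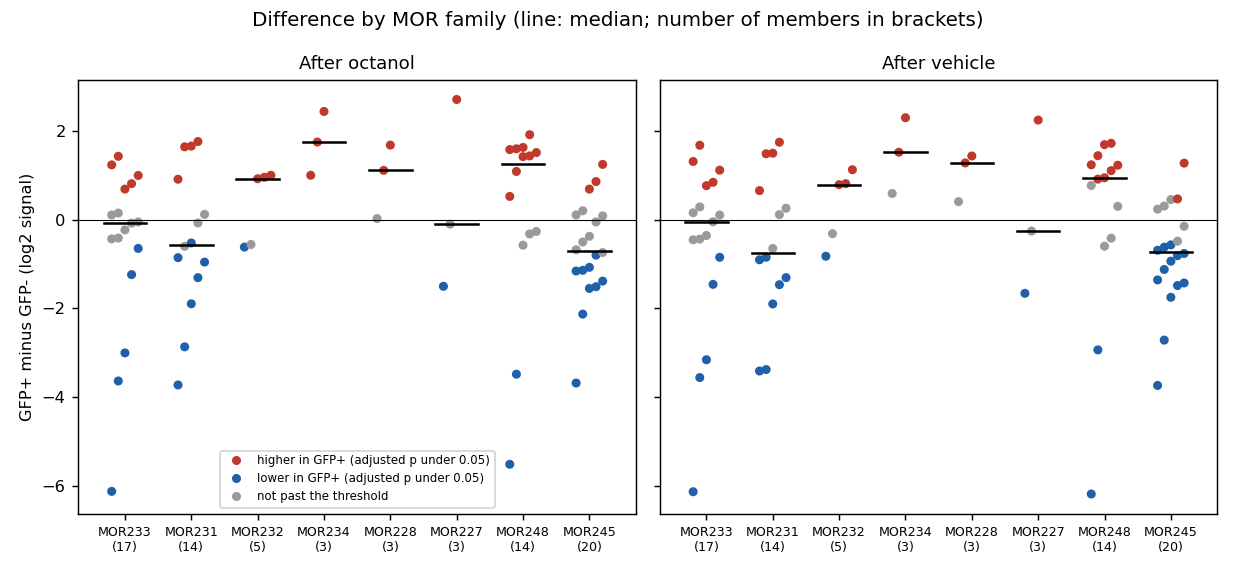
GFP+ minus GFP- difference in log2 signal for the receptors of each MOR family with 3 or more genes, by hyphenated MOR number, after octanol (left) and vehicle (right). The family median is a line and the number of genes is in brackets. MOR248 lies mostly above 0 and MOR245 mostly below it, and MOR233 and MOR231 hold genes far apart in both directions.

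By the medians, relatives with similar coding starts differed as much as less similar ones, and opposite calls were a larger share of the similar pairs. The first 50 coding bases could be compared for 61 of the 88 receptors (chosen after the data were seen, as a protein table was not used here). Among pairs of 1 family by hyphenated MOR number, 18 shared at least 45 of 50 bases. The median gap between the differences of a pair was 1.32 log2 after octanol and 1.46 after vehicle. For the 56 pairs that shared 40 to 44 it was 1.36 and 1.50, and for the 192 pairs that shared fewer it was 1.35 and 1.26. A receptor can be in several pairs, so the pairs are not separate cases. Called in opposite directions after both exposures were 5 of the 18, 10 of the 56 and 23 of the 192. The 5 include Olfr1297 with Olfr1298 and with Olfr1294, and Olfr1216 with Olfr1218, whose sequences are printed above. The differences of Olfr1294 and Olfr1297 lay 7.08 log2 apart after octanol and 7.61 after vehicle. Olfr1249, Olfr1251 and Olfr1253, identical over these bases, had differences of -0.08, -1.31 and -0.53 after octanol and 0.26, -1.46 and -0.90 after vehicle.

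Upstream sequence was examined because receptor promoters are known to carry sites for EBF (Olf1) and homeodomain factors such as LHX2. Of the 76 receptors with a promoter window in RefSeq, 61 have a gene model that starts at the coding start, so only the 9 with a gene model over 1500 bases were used. Their 10 windows hold 250 bases before the gene start and 50 bases after it, and both parts were searched. The core letters of the EBF site, CCCNNGGG, searched on both strands, were in 2 of the 10 windows (20.0%), in 12.8% of the 133 windows of other receptors with such models and in 13.7% of all 32851 windows of that length. A longer form of it, with T before and A after these letters, was in 0 of the 10 and in 0.904% of all. The 2 matches were upstream of Olfr1213 (94 bases before the start) and of Olfr1223 (174 bases before), which is printed beside it because its RNA was found alike in both fractions, with differences of 0.15 after octanol and 0.10 after vehicle that did not pass the test. The 250 bases before the start are printed for both. They are on the minus strand, at chr2:88980268-88980517 and chr2:89151337-89151586, capitals mark the match, and it overlaps no other motif searched.

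Olfr1213 upstream: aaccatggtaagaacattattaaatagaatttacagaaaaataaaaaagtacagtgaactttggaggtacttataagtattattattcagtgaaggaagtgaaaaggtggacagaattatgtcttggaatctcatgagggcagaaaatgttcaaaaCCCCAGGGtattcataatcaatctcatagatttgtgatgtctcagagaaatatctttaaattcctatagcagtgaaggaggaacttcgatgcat
Olfr1223 upstream: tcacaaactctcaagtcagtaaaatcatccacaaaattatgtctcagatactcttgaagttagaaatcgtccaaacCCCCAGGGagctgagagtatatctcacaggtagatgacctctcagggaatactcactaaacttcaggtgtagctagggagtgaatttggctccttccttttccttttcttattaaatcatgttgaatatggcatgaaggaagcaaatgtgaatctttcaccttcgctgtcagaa

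The homeodomain letters TAATTA were in 20.0% of the 10 windows, in 19.5% of the windows of other receptors and in 5.29% of all windows, and the TATA letters TATAAA in 50.0%, 31.6% and 13.6% in the same order. A match shows only that these letters are there.

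Genes that act with the receptors were followed in lists. Of all genes 16.7% were higher and 13.2% lower after octanol, and 14.7% and 13.5% after vehicle, and the counts of receptor gene choice below were not above these shares. Of 14 genes of odor signal transduction, the GFP+ fraction had 7 higher and 0 lower after octanol, and 5 and 0 after vehicle, all by less than 1 log2. Pde1c, a phosphodiesterase that removes cyclic nucleotides, differed by 0.73 ± 0.10 and 0.67 ± 0.10, and Ano2, the calcium-activated chloride channel, by 0.52 ± 0.09 and 0.50 ± 0.09. Of 12 genes of receptor gene choice 2 were higher and 1 lower after octanol and 0 and 1 after vehicle. The lower one was Lbr, the lamin B receptor (-1.89 ± 0.17 and -1.83 ± 0.17). Its loss from the nuclear envelope is known to go with neuronal maturation. Other cell types differed between the fractions too. After octanol and vehicle, median differences were -6.75 and -8.24 for neutrophil marker genes. They were -2.76 and -2.86 for progenitor and -2.33 and -2.74 for immature neuron marker genes. How much of the fall of Lbr came from this difference in cell content was not tested. Of 5 measured receptor transport genes 2 were higher after both exposures, Rtp2 (0.39 and 0.40) and Reep1 (0.38 and 0.54). All 5 activity-raised genes were higher after both, S100a5 by 0.86 ± 0.12 and 0.82 ± 0.12, and since the gate follows S100a5 this list is no independent measure.

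Replicate arrays of a group did not spread evenly over the receptors. The SD within a group, pooled over the 4 groups, had a median of 0.39 log2 over the 88 receptors and ran from 0.16 to 1.03, the last for Olfr1271. It was larger in GFP+ than in GFP- cells for 60 of them. The median level of the 88 on each array was 10.47, 10.19, 11.08 and 11.10 in octanol GFP+ cells, against 10.38, 10.56, 10.72 and 10.60 in octanol GFP- cells. After vehicle it was 10.35, 10.31, 10.98 and 11.20 in GFP+ cells, against 10.61, 10.68, 10.42 and 10.49 in GFP- cells. In both exposures GFP+ replicates 3 and 4 were higher than replicates 1 and 2, while the medians of the other receptors in these GFP+ arrays were 9.97, 9.89, 9.78 and 9.80 after octanol and 9.78, 10.03, 9.67 and 9.80 after vehicle.

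GFP+ replicate 2 was the lowest of its 4 arrays for 54 of the 88 receptors after octanol and for 50 after vehicle, and 41 receptors were lowest there in both exposures. Olfr1226 had 10.32, 10.02, 12.26 and 11.64 in octanol GFP+ cells, against 13.82, 13.67, 14.32 and 14.42 in octanol GFP- cells, and 10.32, 9.38, 11.79 and 12.18 in vehicle GFP+ cells, against 13.91, 13.80, 14.31 and 14.26 in vehicle GFP- cells. Its GFP+ arrays span more than 2 log2 and its GFP- arrays less than 1, and the fractions do not overlap. Olfr1271 had 10.76, 10.48, 12.63 and 11.82 in octanol GFP+ cells, against 13.23, 12.02, 14.07 and 12.38 in octanol GFP- cells, so its fractions overlap across pools although it was lower in GFP+ cells within the pools (-1.50 ± 0.32, adjusted p = 0.00577). The labels give no batch, day or sex for an array, so what the replicates with the same number share was not tested.

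**Figure D4:**
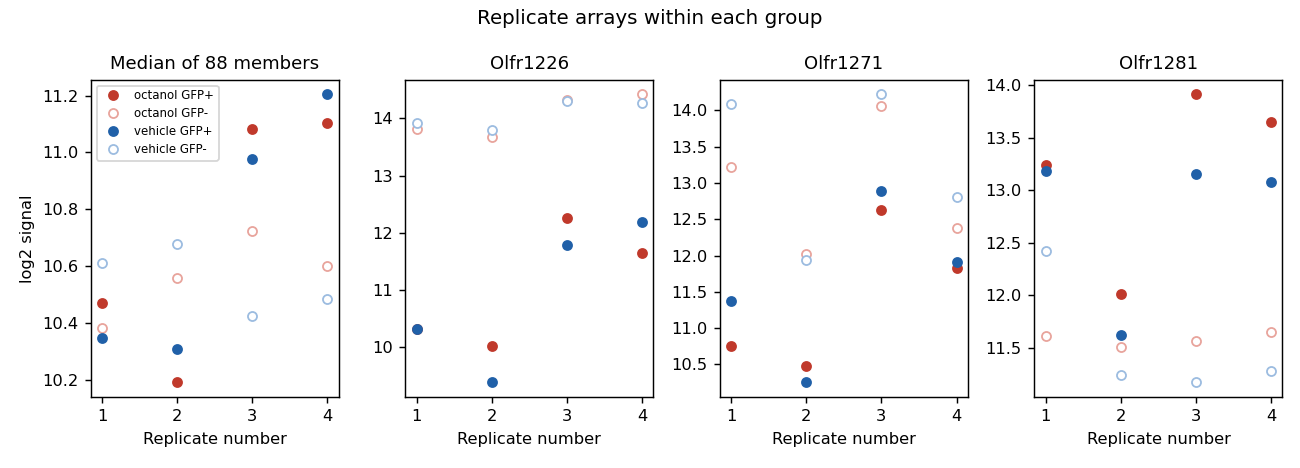
Log2 signal on each array by replicate number, for the median of the 88 receptors and for Olfr1226, Olfr1271 and Olfr1281, with GFP+ arrays as filled and GFP- arrays as open points. Octanol and vehicle GFP+ arrays with the same number lie close to each other, and replicate 2 is the lowest GFP+ array for all 3 genes in both exposures; replicate numbers have no order.

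The second question is whether octanol changed any of these receptors. In the GFP+ to GFP- ratio, the difference between the difference after octanol and that after vehicle, 0 of the 88 receptors passed the test in either direction, as did 0.0% of all genes (limma, smallest adjusted p of any gene 0.863). Unadjusted p was under 0.05 for 3 of the 88, and for 4.54% of all genes. The differences ran from -0.57 to 0.67 log2, with a median of 0.14 beside 0.17 for the other receptors and 0.03 for all genes, and 81 of the 88 were under 0.5 in size. The median SE was 0.32 (0.15 to 0.65 over the 88), and differences of up to 0.67 did not pass after adjustment over all genes. Changes in the ratio of that size can have gone undetected, and no limit of detection was worked out.

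The 3 receptors were Olfr1297, Olfr1241 and Olfr1282. Olfr1297 had a ratio 0.67 ± 0.23 higher after octanol (SE, unadjusted p = 0.0152, adjusted p = 0.998), with its 4 pools at -5.51 on average after octanol, against -6.17 after vehicle. Olfr1241 was 0.54 ± 0.20 higher (unadjusted p = 0.0212) and Olfr1282 fell by 0.42 ± 0.15 (unadjusted p = 0.0173), and the adjusted p was 0.998 for both. Next in order of p were Olfr1270 (0.46 ± 0.23) above 0, and Olfr1295 (-0.57 ± 0.27) and Olfr1277 (-0.55 ± 0.28) below it.

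Octanol and vehicle were also compared within each fraction. In GFP+ cells 0 of the 88 passed, as did 0.0% of all genes, and unadjusted p was under 0.05 for 3 of the 88 and for 3.73% of all genes. The differences ran from -0.66 to 0.57, and 83 of the 88 were under 0.5 in size. The 3 were Olfr1316 (-0.30 ± 0.11, unadjusted p = 0.0191), Olfr1283 (0.47 ± 0.19, unadjusted p = 0.0318) and Olfr1240 (0.29 ± 0.12, unadjusted p = 0.0395). Olfr1316, a MOR245 receptor, had 7.78, 7.68, 7.71 and 8.0 in octanol GFP+ cells, against 8.12, 8.05, 8.12 and 8.09 in vehicle GFP+ cells. It was the 1 receptor of the 88 whose octanol and vehicle GFP+ arrays did not overlap, where 0.964% of all genes were lower and 1.25% higher in that way. Olfr1275 (0.52 ± 0.30), Olfr1295 (-0.36 ± 0.17) and Olfr1277 (-0.66 ± 0.33) followed by p.

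In GFP- cells 0 of the 88 passed, as did 0.0% of all genes, and unadjusted p was under 0.05 for 8 of the 88 (9.09%) and for 4.58% of all genes. The differences ran from -0.59 to 0.55, and 83 were under 0.5 in size. The smallest p in each direction were those of Olfr1276 (0.55 ± 0.18, unadjusted p = 0.0115), Olfr1212 (0.55 ± 0.21, unadjusted p = 0.0267) and Olfr1260 (0.40 ± 0.18, unadjusted p = 0.0445) above 0, and of Olfr1216 (-0.41 ± 0.16, unadjusted p = 0.0248), Olfr1215 (-0.59 ± 0.23, unadjusted p = 0.0253) and Olfr1286 (-0.42 ± 0.17, unadjusted p = 0.0315) below it. Olfr1276 had 9.63, 9.15, 9.58 and 9.67 in octanol GFP- cells, against 9.23, 8.52, 8.97 and 9.11 in vehicle GFP- cells, and the groups overlap by 1 array of each. The octanol and vehicle GFP- arrays overlapped for all 88 receptors, where those of 1.06% of all genes lay apart as higher and of 1.51% as lower. Adjusted p was 0.982 or more in GFP- cells and 0.9996 or more in GFP+ cells for each of the 88 receptors.

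**Figure D5:**
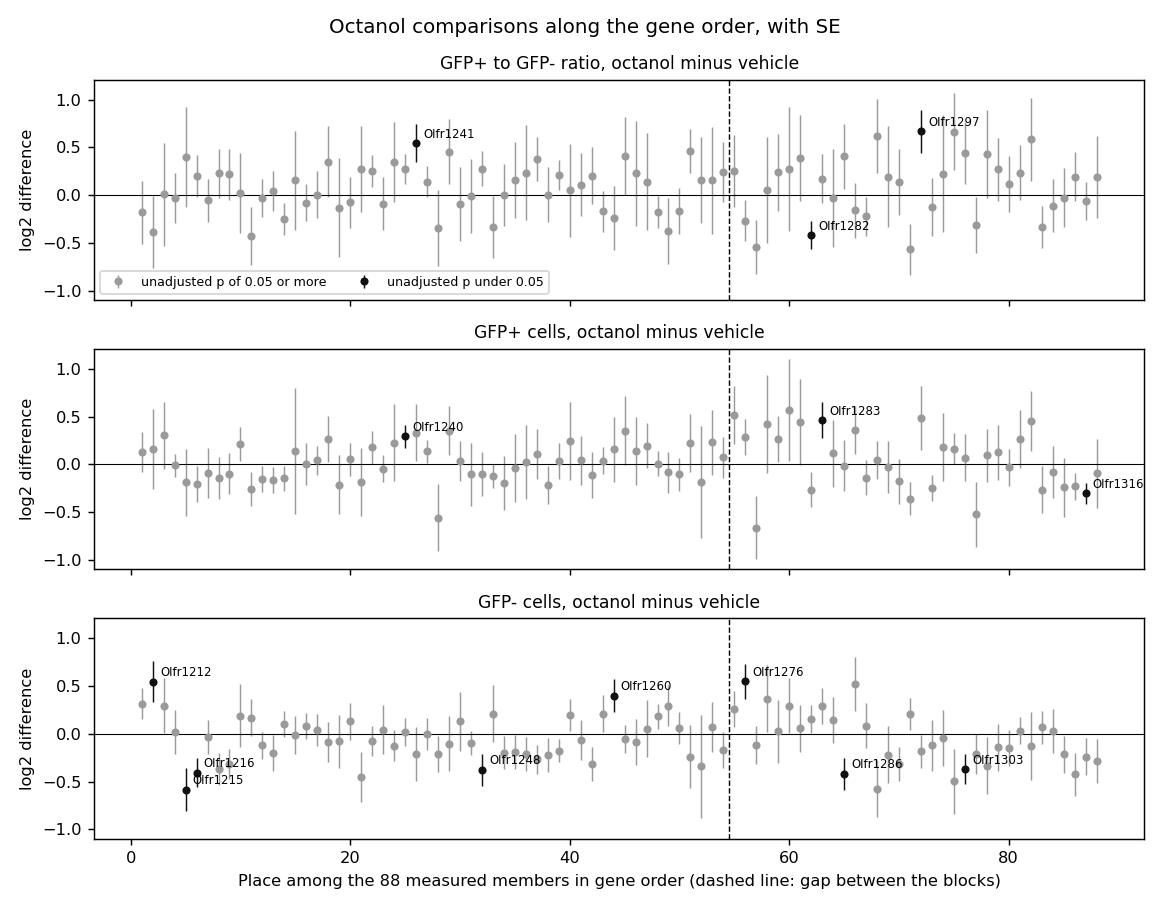
Octanol minus vehicle in log2 (points, with SE) for the 88 receptors in gene order, in the GFP+ to GFP- ratio, in GFP+ cells and in GFP- cells. Black points have an unadjusted p under 0.05, 3, 3 and 8 receptors in the 3 panels, and none passed after adjustment over all genes.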

How the data were processed

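RNA of 16 sorted fractions from 8 pools was measured on Clariom S arrays. The log2 values were used as deposited; the authors made them with Affymetrix Expression Console, per the submitters' processing notes, with version and options not given in the sources used here. Of 28846 probe sets, 19572 carry 1 gene symbol, and the one with the highest mean over the 16 arrays was kept per gene, which left 19505 genes. Differences were fitted with limma 3.58.1 in R 4.3.3 (lmFit and eBayes), and p-values were adjusted by Benjamini-Hochberg over all genes, with a threshold of 0.05. Fractions were compared over 16 arrays with the pool as a block, and exposures within a fraction over 8 arrays. Fractions of 1 pool had residual correlations of 0.0779 to 0.222, over 0.1 in 6 of 8 pools (mean of other pairs of different groups -0.0145). Same-numbered octanol and vehicle arrays of a fraction, which are different mice, had 0.0582 to 0.332. These correlations therefore cannot show that fractions share mice, and the pairing is inferred from the labels' mouse numbers. The number of arrays limits the precision. The fits were tested on simulated data.

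The members and lists were chosen with earlier results of these data known. Receptors named are the 10 largest rises and falls with 1 sign in 4 pools per exposure, the 3 smallest p in each direction per octanol comparison, the 5 highest and lowest deposited means (a rule of choice, not a ranking of expression) and all under background, the 5 widest opposite neighbour pairs, runs of 5 or more, the highest and lowest of each MOR family, the 3 highest with no call, and up to 4 genes a list. The rule on protein identity was not used here and coding starts took its place; other receptors named (shorter runs, variable receptors, sequences) were chosen after their values were seen. Arrays under background were raised to it for bounds. Alternatives were other scalings, blocks, background limits and replicates left out.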

Additional observations from a re-analysis of the deposited data

Results flagged for a closer look

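Among the 46 named receptors, 184 groups of 4 arrays were examined, and 13 had an array far from the other 3 by Dixon's test; chance gives about 1 in 20 groups. In octanol GFP+ cells the array of replicate 4 was high for Olfr1216 (13.77, next 13.13) and Olfr1275 (11.92, next 11.42). Replicate 2 was high for Olfr1242 (12.09, next 11.78) and low for Olfr1229 (11.77, next 12.09) and Olfr1301 (12.43, next 13.26). In octanol GFP- cells replicate 1 was low for Olfr1278 (10.09, next 10.96).

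In vehicle GFP+ cells replicate 2 was low for Olfr1254 (12.00, next 12.69), Olfr1262 (12.96, next 14.13), Olfr1281 (11.62, next 13.08) and Olfr1301 (11.77, next 13.18), and high for Olfr1252 (11.47, next 9.90). Replicate 4 was high for Olfr1230 (6.27, next 5.48), under background. In vehicle GFP- cells replicate 1 was high for Olfr1281 (12.42, next 11.28). Olfr1301 thus had a low replicate 2 in GFP+ cells of both exposures.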

How the results depend on the processing

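No receptor called in a fraction comparison was called in the opposite direction under any alternative, and of the 62 called 42 to 62 kept their call. After octanol, centring arrays on the other odorant receptors gave 22 higher and 42 lower receptors (25.0% and 47.7% of the 88, where 2.52% and 53.3% of all genes were), against 35 and 27 as deposited. Leaving out the octanol pools 3 and 4 (chosen after seeing the data) gave 23 higher and 20 lower, where 8.13% and 10.1% of all genes were. The cause was not tested, and leaving pools out also leaves fewer arrays. Leaving out each replicate in turn gave 27 to 35 higher and 22 to 29 lower after octanol, and 23 to 32 higher and 25 to 30 lower after vehicle. No replicate block gave 34 and 26 after octanol (14.4% and 12.7% of all genes) and 30 and 28 after vehicle (12.6% and 13.0%). A random replicate block gave 36 and 28 (18.9% and 13.7% of all genes), and 32 and 32 (16.8% and 14.2%). In the octanol comparisons 0 of the 88 receptors were called under all alternatives, and limma with a trended, robust prior called 1 other odorant receptor in the ratio. With a replicate block the unadjusted p was under 0.05 for 11 receptors in GFP+ and 15 in GFP- cells (12.5% and 17.0%, where 4.13% and 6.55% of all genes were), against 3 and 8 without it. Same-numbered octanol and vehicle arrays had residual correlations over all genes of 0.0582 to 0.230 in GFP+ and 0.0719 to 0.332 in GFP- cells, and 4 of 8 and 7 of 8 arrays correlated best with their own number. Over the 88 receptors these correlations were higher, at 0.324 to 0.678 in GFP+ (8 of 8 arrays best with their own number) and 0.279 to 0.497 in GFP- cells (7 of 8). This comes from the data, and the labels name nothing that the numbers share. Over the named receptors 985 of 991 alternative fits kept direction and call, 6 lost the call (Olfr1231 in 2 fits after vehicle, and Olfr1252, Olfr1262, Olfr1281 and Olfr1301 after octanol) and 0 reversed. Many of these fits could change little. Each receptor has 1 probe set, so averaging probe sets (59 fits) left its values as they were. The octanol comparisons had no call to lose, and leaving out a pool left the other exposure's difference unchanged. Most named receptors were also chosen for large differences. Levels near background limit Olfr1230, Olfr1279 and Olfr1314.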
